A study of Mus musculus with 6 samples.

Results

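The 40 genes described here encode enzymes of cholesterol synthesis, of fatty acid synthesis and of triglyceride synthesis, with the proteins that control their transcription. They were chosen by gene symbol from a fixed list, and each symbol matched 1 row of the 29543 gene IDs in the deposited table. By role they comprise 15 sterol enzymes, 6 regulators, 7 genes of fatty acid synthesis, 5 of desaturation and elongation and 7 of triglyceride synthesis. Total RNA of mouse liver had been sequenced from 3 samples with ischemia reperfusion injury (IR injury), made by opening the abdomen and stopping, then restoring, the liver's blood supply, and from 3 samples with laparotomy alone (Sham). Laparotomy is thus common to both groups. The sources used here do not give strain, genotype, sex, age or the times of ischemia and reperfusion. The labels call the libraries separate biosamples but do not say whether these came from separate animals, so p-values measure the spread between these samples.

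Liver is a main site of cholesterol and fat synthesis. SREBP2 (Srebf2) mainly drives the sterol enzymes and SREBP1 (Srebf1) the lipogenic enzymes. Both precursors are escorted from the endoplasmic reticulum by SCAP and held back there by INSIG1 or INSIG2 when sterols are plentiful. ChREBP (Mlxipl) adds a response of lipogenic genes to carbohydrate.

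Promoter letters of 5 genes are shown because their transcripts bracket the range of responses described below. Hmgcs1 and Sc5d are sterol enzymes that were lower after IR injury, Insig1 and Insig2 moved in opposite directions, and Thrsp had the largest rise. Each line gives the 150 bases before a transcription start (RefSeq, build GRCm38.p6), 5′ to 3′ on the gene's strand, and capitals mark TCACNCCAC (a sterol regulatory element), CACGTG (an E-box), CCAAT (an NF-Y box) or GGGCGG (a GC box) on either strand.
Hmgcs1 (chr13:119690201-119690350, plus strand): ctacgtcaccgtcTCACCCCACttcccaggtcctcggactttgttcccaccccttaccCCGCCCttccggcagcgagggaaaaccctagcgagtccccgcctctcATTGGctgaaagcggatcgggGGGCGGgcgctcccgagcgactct
Sc5d (chr9:42264301-42264450, minus strand): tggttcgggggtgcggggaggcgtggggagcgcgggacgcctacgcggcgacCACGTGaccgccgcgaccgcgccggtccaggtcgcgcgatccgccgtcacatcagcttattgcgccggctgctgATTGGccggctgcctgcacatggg
Insig1 (chr5:28071262-28071411, plus strand): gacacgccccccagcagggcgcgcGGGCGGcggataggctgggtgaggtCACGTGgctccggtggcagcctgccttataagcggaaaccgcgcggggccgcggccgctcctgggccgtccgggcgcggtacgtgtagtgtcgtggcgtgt
Insig2 (chr1:121332590-121332739, minus strand): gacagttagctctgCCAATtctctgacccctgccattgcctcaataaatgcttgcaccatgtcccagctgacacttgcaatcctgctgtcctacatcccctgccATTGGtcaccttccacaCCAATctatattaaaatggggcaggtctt
Thrsp (chr7:97417551-97417700, minus strand): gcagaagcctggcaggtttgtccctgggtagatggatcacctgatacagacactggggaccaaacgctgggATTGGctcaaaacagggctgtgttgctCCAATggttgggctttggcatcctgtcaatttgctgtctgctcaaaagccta
Windows of 300 bases, 250 before and 50 after the start, were listed for 33 of the 40 genes (46 starts). Fdps, Fdft1, Sqle, Scd1, Fads1, Dgat1 and Dgat2 had no entry. CCAAT was found in 60.9% of the 46 windows and in 37.4% of all 32851 promoter windows. By window it was in 12 of 15 of the sterol enzymes and 10 of 19 of the fatty acid and triglyceride genes. By gene, where several starts give more chances, it was in all 12 sterol enzymes listed and in 10 of 15 fatty acid and triglyceride genes. CACGTG was in 19.6% against 7.15%, GGGCGG in 65.2% against 35.7%, and TCACNCCAC in 4.35%, that is 2 windows (Hmgcs1 and Mlxipl), against 1.24%. In Insig2, which has 3 listed starts, the start shown carries CCAAT letters but no GGGCGG, and Insig1 carries CACGTG at position -101 from its start. These matches describe letters, not binding, and the gene-level values do not separate starts. The RefSeq starts can also differ from the GENCODE M21 gene models. The printed Insig1 letters run past the M21 start at 28071363, and those of Thrsp lie inside the M21 gene, which opens at 97417730. For Hmgcs1 and Sc5d the RefSeq start lies before the M21 start (119690379 and 42264256).

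Most of the genes were lower after IR injury, with median log2 fold changes of -0.93 for triglyceride synthesis, -0.90 for desaturation and elongation and -0.25 for the sterol enzymes. Of the 40 genes, 38 had a mean of at least 1 FPKM (fragments per kilobase of exon scaled to library size, the authors' unit) and were tested with limma on log2(FPKM + 1), with p-values adjusted over all 10316 genes tested. Of the 38, 29 fell and 6 rose, and the 3 others were Lss, Acly and Elovl6. As background, 78.1% of all genes passed in either direction, 53.8% lower and 24.3% higher, so passing by itself sets few genes apart. Sham and IR injury values did not overlap for 35 of the 38 (29 lower, 6 higher), against 80.6% of all genes (55.2% lower, 25.4% higher). The median log2 fold change was -0.61 for the 38 genes and -0.23 for all genes tested.

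That median of all genes depends on scaling. Median-of-ratios scaling, which aligns the typical gene between libraries, moved it to 0.0027, a shift of 0.24, and 76.3% of all genes then passed, 38.2% higher and 38.1% lower. Scaled in that way, 23 of the 38 genes fell and 8 rose, and their median was -0.33. Of the 14 sterol enzymes tested, 10 were lower and 3 higher as deposited but 6 lower and 4 higher under median-of-ratios scaling (median -0.25 against 0.01). Among the 18 tested genes of fatty acid and triglyceride synthesis, 14 fell and 2 rose as deposited, and 13 fell and 3 rose with the typical gene aligned (median -0.82 against -0.52). The difference between these group medians was not tested. In whole tissue, fewer cells of a type and less RNA per cell cannot be told apart.

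**Figure D1:**
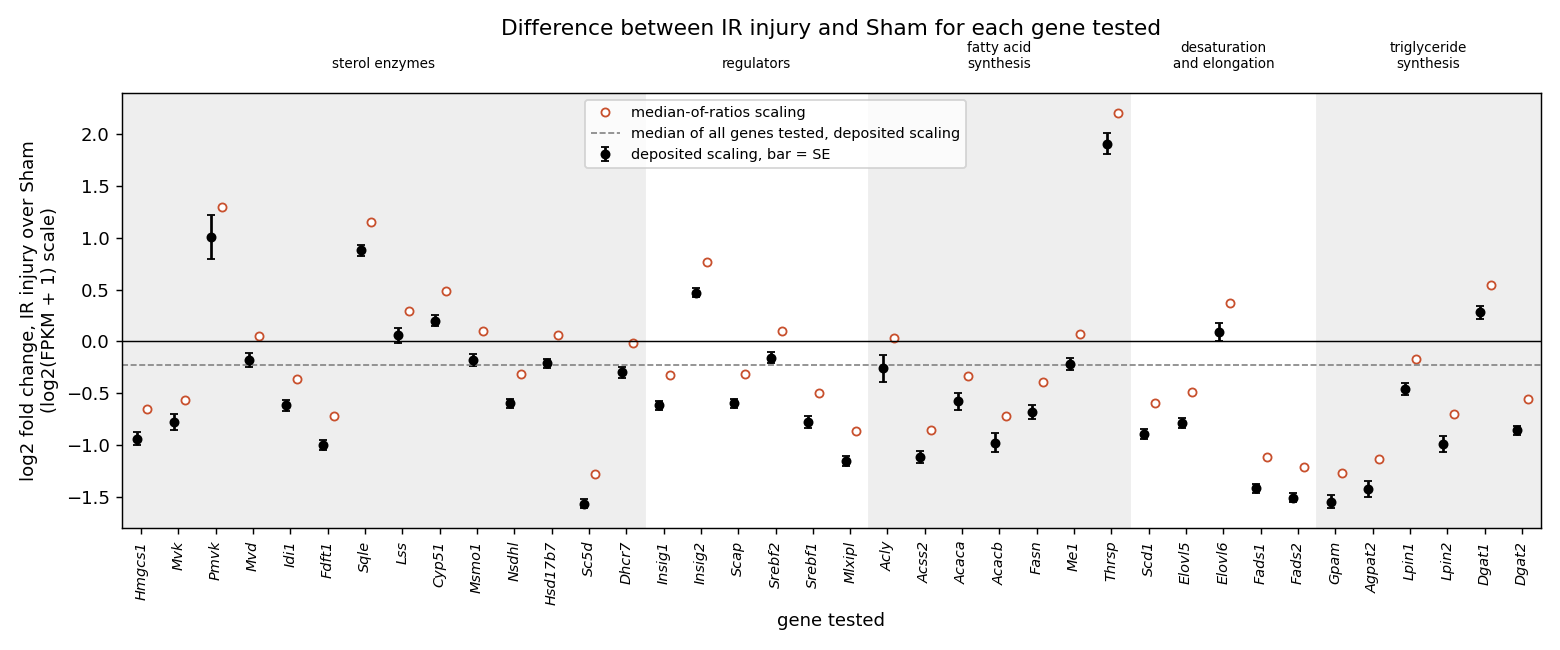
Log2 fold change (IR injury over Sham) of the 38 genes tested, grouped by role. Filled points with SE bars are from limma on the deposited scaling, open points are under median-of-ratios scaling, and the dashed line is the median of all genes tested, at -0.23. Thrsp lies highest at 1.91 and Sc5d lowest at -1.57.

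**Figure D2:**
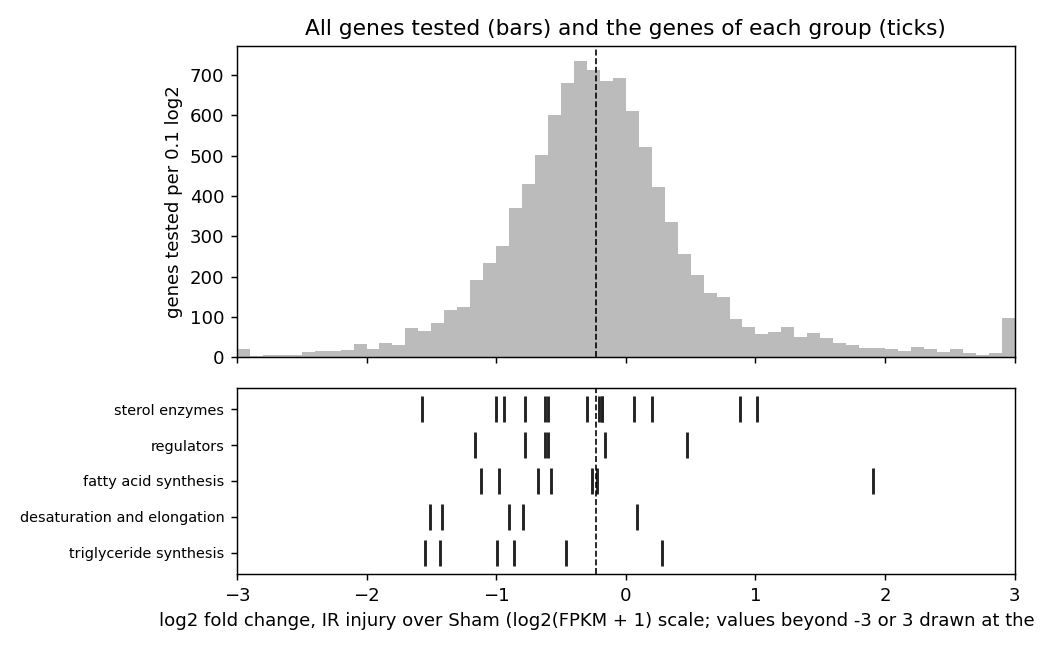
Bars count all 10316 genes tested by log2 fold change (IR injury over Sham), and ticks below mark the 38 genes by role. Of the 38 ticks, 25 lie to the left of the dashed line, the median of all genes at -0.23.

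Several values of the whole tissue moved with these results. Rebuilt library totals were 53622229 to 71752584 reads and overlapped between groups. The liver label fits the hepatocyte markers, whose 7 genes summed to between 57204 and 61839.7 FPKM in Sham and between 47874 and 50626 in IR injury, mostly albumin, with 5 lower and 1 higher as deposited but 0 lower and 3 higher under median-of-ratios scaling. Of 9 neutrophil markers all 7 tested rose, summing to between 10.9 and 12.4 FPKM in Sham and between 151 and 193 in IR injury, while 6 of 7 Kupffer cell markers (204 to 209 against 86.3 to 112 FPKM) and all 7 stellate cell markers tested of 8 (82.8 to 90.0 against 23.2 to 33.6 FPKM) fell. Of 8 sinusoidal endothelial markers 6 fell and 1 rose, with sums of 54.6 to 61.7 FPKM in Sham and 36.3 to 75.6 in IR injury, and the 3 cholangiocyte markers tested of 5 rose (23.8 to 27.3 against 30.5 to 41.2 FPKM). Among all genes 53.8% were lower and 24.3% higher as deposited. With median-of-ratios scaling 5 Kupffer cell and 5 endothelial markers were lower, and the neutrophil, stellate cell and cholangiocyte counts were unchanged. The part of these cells in the results was not tested. Adipocytes also express lipogenic genes. Of their markers, Lep and Retn were at 0 in all 6 libraries, Adipoq and Plin1 were at 0 in Sham and did not exceed 0.042 FPKM in IR injury, and Cfd was at 0 in Sham and at 0.302, 0.157 and 0.0803 FPKM in IR injury. Of the 6 adipocyte markers only Fabp4, which endothelium and macrophages also express, was tested, and it rose (5.30 to 5.48 FPKM in the Sham libraries, 9.13 to 12.7 FPKM in the others).

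The sterol enzymes did not move together. In the mevalonate segment, Hmgcs1, which makes HMG-CoA, stood at 21.4, 20.9 and 22.6 FPKM in the Sham libraries and at 10.1, 10.9 and 11.5 in the IR injury libraries. The mean in IR injury was 0.501 of that in Sham, a fall of 0.94 on the log2 scale (SE 0.0589, limma adjusted p = 3.64e-06). Mvk, mevalonate kinase, fell from 3.13 ± 0.0675 to 1.42 ± 0.237 FPKM (SD, n = 3; log2 fold change -0.78), and Idi1, the isomerase of the isoprenoid units, from 8.34 ± 0.345 to 5.08 ± 0.261 (-0.62). Mvd, the decarboxylase between them, was only slightly lower (3.30 ± 0.336 against 2.79 ± 0.118 FPKM, -0.18, adjusted p = 0.0413) and lost its call on leaving out any library but Sham replicate 2, without the filter on low values, in limma voom and under median-of-ratios and quantile scaling, with adjusted p up to 0.836.

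Pmvk, phosphomevalonate kinase, went the other way. Its FPKM was 12.5, 11.0 and 13.5 in Sham and 38.1, 20.2 and 22.2 in IR injury. The groups did not overlap, but IR injury replicate 1 stood far above the other libraries of its group. The log2 fold change was 1.01 (SE 0.215, adjusted p = 0.00303), and without that library it was 0.74.

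Fdps, farnesyl diphosphate synthase, was under the filter on low values and was tested only in the alternative without it, where it was lower (-0.38, SE 0.0339, limma adjusted p = 0.000238). It was listed at 0.442, 0.460 and 0.452 FPKM in Sham and at 0.0787, 0.145 and 0.114 in IR injury, from 102 to 139 rebuilt reads per Sham library and 19 to 42 per IR injury library. The level is uncertain, because its exons share 26.7% of their bases with the same-strand gene model Gm43738, and 4 processed pseudogenes match its transcript at 95% identity or more. Of these pseudogenes Gm3571 was listed at 6.39, 3.94 and 5.79 FPKM in Sham and at 2.91, 3.05 and 3.70 in IR injury.

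In the squalene segment the enzymes diverged. Fdft1, squalene synthase, fell from 19.7, 19.2 and 18.6 FPKM to 8.77, 9.49 and 9.05, a log2 fold change of -1.0 (SE 0.0480, adjusted p = 9.40e-07). Its exons share 18.3% of their bases with Ctsb on the opposite strand, at 123 to 127 FPKM in Sham and 90.1 to 98.6 in IR injury, and the handling of strand is not given in the sources used here. Sqle, the squalene epoxidase that follows it, rose from 6.60, 7.16 and 6.65 FPKM to 14.1, 13.0 and 12.8. Its level in IR injury was 1.96 times that in Sham, with 0.88 on the log2 scale (SE 0.0544, adjusted p = 3.41e-06) and 1.15 under median-of-ratios scaling. Lss, which closes the ring to lanosterol, was at 3.03 ± 0.189 and 3.20 ± 0.350 FPKM, and the groups overlapped (adjusted p = 0.485), although it passed as higher under median-of-ratios scaling (0.29, adjusted p = 0.0154).

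After lanosterol, most enzymes changed little but Sc5d fell steeply. Cyp51, lanosterol demethylase, rose from 19.1, 19.4 and 19.6 FPKM to 23.4, 20.7 and 23.2 (0.20, SE 0.0558, adjusted p = 0.0110), with every IR injury library above every Sham library. Msmo1, the sterol methyl oxidase (-0.18), and Hsd17b7, the ketosteroid reductase (-0.21), fell as deposited but had the opposite sign, without passing, under median-of-ratios scaling, where Dhcr7, the final reductase of this series (-0.30 as deposited), was at -0.02. Nsdhl, the C4 decarboxylating dehydrogenase, fell from 12.8 ± 0.391 to 8.09 ± 0.242 FPKM (-0.60). Sc5d, lathosterol oxidase, which was the most abundant of the 15 per length in Sham, went from 73.2, 75.5 and 77.1 FPKM to 24.7, 25.2 and 23.9. At -1.57 (SE 0.0438, adjusted p = 7.83e-08) it had the lowest log2 fold change of the 38 genes on this scale, and 2.91% of all genes tested had a lower one. By the ratio of means Gpam fell further (3.13 against 3.06 times lower), as it did with pseudocounts of 0.1 and 0.5 and in limma voom. In IR injury Sc5d lay just above Cyp51, at 20.7 to 23.4 FPKM, and within the range of Pmvk, at 20.2 to 38.1 FPKM.

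**Figure D3:**
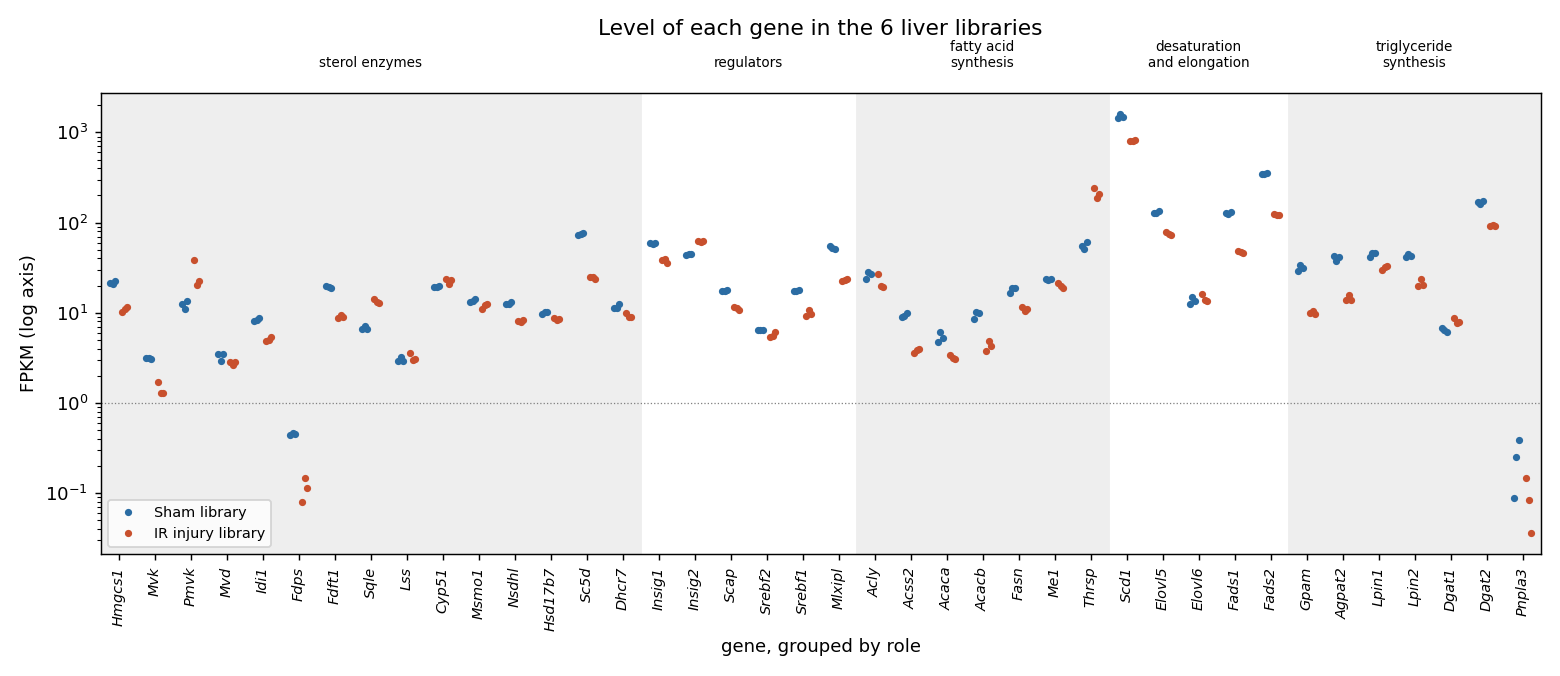
FPKM on a log axis for all 40 genes in each library, 3 Sham (blue) and 3 IR injury (orange), grouped by role, with a dotted line at the filter of 1 FPKM. Replicates lie close together for most genes, and Fdps and Pnpla3 lie under the line.

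The regulators fell, except Insig2. Srebf1 went from 17.3, 17.3 and 18.0 FPKM in Sham to 9.13, 10.7 and 9.64 in IR injury (-0.78, SE 0.0607, adjusted p = 1.16e-05). Srebf2 stayed near its Sham level, with 6.49, 6.41 and 6.47 against 5.43, 5.55 and 6.13 FPKM. Its fall of 0.16 as deposited (adjusted p = 0.0286) was lost on leaving out any library except IR injury replicate 3 and was 0.10, of opposite sign and not past the threshold, under median-of-ratios scaling. The escort Scap fell from 17.6 ± 0.226 to 11.3 ± 0.469 FPKM (-0.60). Mlxipl, which encodes ChREBP, fell further, from 55.1, 52.1 and 50.9 to 22.5, 22.9 and 23.7 FPKM (-1.16, SE 0.0477, adjusted p = 4.67e-07), and 7.44% of all genes tested had a lower log2 fold change.

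The 2 INSIG genes exchanged order. Insig1, itself an SREBP target, was at 59.0, 57.4 and 59.3 FPKM in Sham and at 38.3, 39.1 and 35.8 in IR injury (-0.62, SE 0.0473, adjusted p = 1.02e-05). Insig2, which in mouse liver has a transcript repressed by insulin, was at 43.2, 45.1 and 44.5 FPKM in Sham and at 62.0, 60.1 and 62.8 in IR injury (0.47, SE 0.0417, adjusted p = 2.42e-05). Every Sham library thus held more Insig1 than Insig2 per length and every IR injury library more Insig2.

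Ratios of related genes within a library do not depend on a scaling factor for each library, and 8 pairs were compared. Insig1 to Insig2 went from 1.37, 1.27 and 1.33 in Sham to 0.618, 0.650 and 0.571 in IR injury. Srebf1 to Srebf2 went from 2.72 ± 0.0570 to 1.73 ± 0.181 (SD, n = 3). None of the 8 ratios overlapped between the groups, and each had an exact two-sided permutation p of 0.1 (0.1 also after adjustment over the 8), the smallest that 3 libraries against 3 allow. The share of other gene pairs without overlap was not computed. Among single genes 80.6% did not overlap, so the lack of overlap by itself says little about these pairs.

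**Figure D4:**
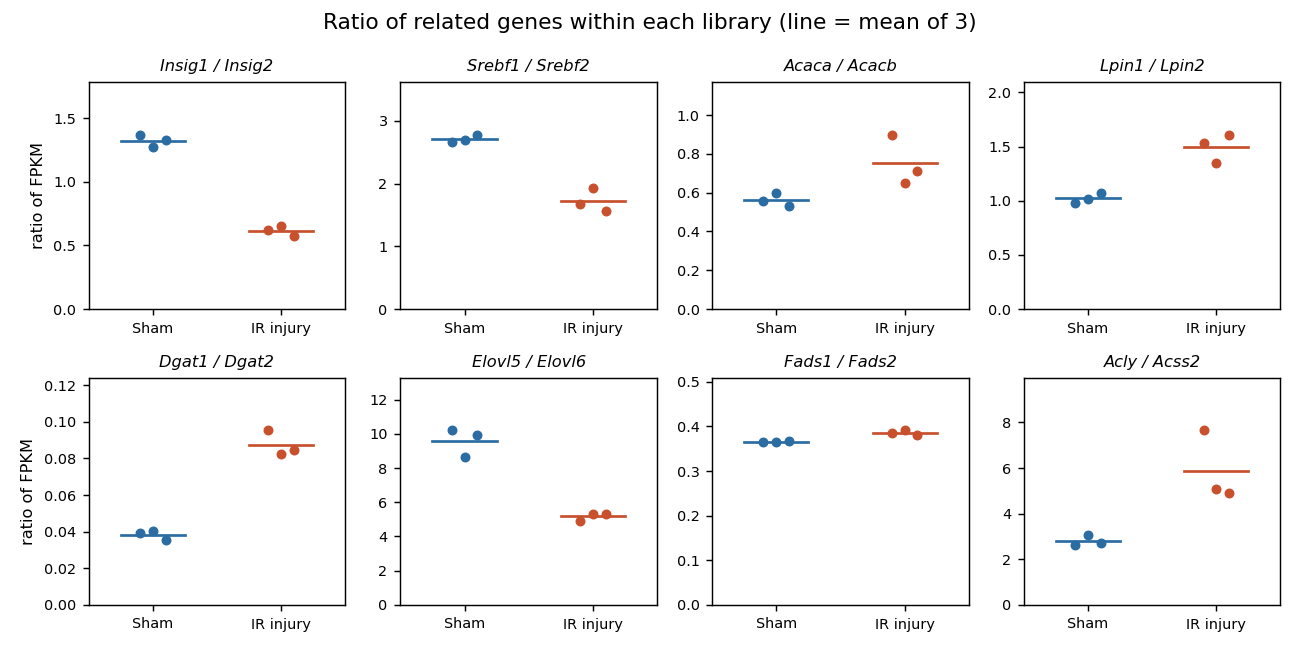
Ratio of FPKM for 8 pairs of related genes in each library, with axes from 0 and a line at the mean of 3 libraries. The Insig1 to Insig2 ratio falls from a mean of 1.32 in Sham to 0.613 in IR injury, while Fads1 to Fads2 differs least, with means of 0.366 and 0.386.

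In fatty acid synthesis 5 of 7 genes fell and Thrsp rose, beside 53.8% lower and 24.3% higher among all genes. Under median-of-ratios scaling 4 were lower and 1 higher, beside 38.1% and 38.2% of all genes. The sources of acetyl-CoA differed. Acly, which cleaves citrate, was at 23.8, 28.1 and 26.8 FPKM in Sham and at 27.1, 19.7 and 19.2 in IR injury, so that 1 IR injury library lay within the Sham range. It did not pass (adjusted p = 0.104), but without IR injury replicate 1 it did (-0.41, adjusted p = 0.00241; 0.00241 to 0.841 over the alternatives). Acss2, which activates acetate, fell from 9.06, 9.12 and 9.93 to 3.55, 3.89 and 3.92 FPKM (-1.12, SE 0.0568, adjusted p = 1.23e-06). The Acly to Acss2 ratio went from 2.80 ± 0.240 to 5.87 ± 1.54, highest in IR injury replicate 1 at 7.65.

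The carboxylases that make malonyl-CoA both fell, Acaca from 5.31 ± 0.670 to 3.21 ± 0.177 FPKM (-0.58) and Acacb, the isoform at mitochondria, from 9.47 ± 0.875 to 4.31 ± 0.526 (-0.98). The Acaca to Acacb ratio went from 0.556, 0.597 and 0.529 to 0.899, 0.652 and 0.711, highest in IR injury replicate 1. Reads of Acaca could be shared with the processed pseudogene Gm5182, which matches 64.3% of its transcript at 99.2% identity and was listed at 1.59 to 2.21 FPKM in Sham and 1.02 to 1.15 in IR injury. Fasn, fatty acid synthase, fell from 16.7, 19.0 and 19.0 to 11.7, 10.5 and 10.9 FPKM (-0.68, SE 0.0661, adjusted p = 4.12e-05). Me1, the malic enzyme that supplies NADPH, was at 23.3 to 23.4 FPKM in Sham and 18.7 to 21.3 in IR injury, with -0.22 as deposited but 0.07, not past the threshold, under median-of-ratios scaling.

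Thrsp, a nuclear protein known as Spot 14 that responds to thyroid hormone and carbohydrate, was at 54.3, 50.6 and 60.4 FPKM in Sham and at 239, 185 and 209 in IR injury. The lowest IR injury library was far above the highest Sham library. Its level was 3.83 times higher (1.91 on the log2 scale, SE 0.101, adjusted p = 1.46e-06), and 97.5% of all genes tested had a lower log2 fold change. Thrsp moved from eighth to second among the 40 genes by mean FPKM, behind Scd1. It also carried the summed FPKM of the 7 genes upward, from between 140.4 and 155 in Sham to between 247 and 309.7 in IR injury, although 5 of the 7 fell. Its paralog Mid1ip1, which promotes polymerisation of acetyl-CoA carboxylase, moved the opposite way, from 7.56 ± 0.376 to 2.26 ± 0.345 FPKM (-1.40).

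Among desaturases and elongases, 4 of 5 fell, beside 53.8% of all genes lower. Under median-of-ratios scaling 4 were lower and 1 higher, beside 38.1% and 38.2% of all genes. Scd1, which makes monounsaturated fatty acids and was the most abundant of the 40 genes in both groups, fell from 1449.7, 1606 and 1491 FPKM to 804, 796 and 825 (-0.90, SE 0.0489, adjusted p = 1.66e-06). The 2 front-end desaturases of polyunsaturated fatty acid synthesis fell further. Fads2 went from 347, 342 and 356 to 124, 120.4 and 121 FPKM (-1.51, SE 0.0395, adjusted p = 6.21e-08). Fads1 went from 127, 124 and 131 to 47.8, 47.1 and 46.0 FPKM (-1.42, SE 0.0417, adjusted p = 1.03e-07).

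Fads1 and Fads2 lie on mm10 chromosome 19 with opposite strands, Fads2 from 10062765 to 10101746 on the minus strand and Fads1 from 10182888 to 10196877 on the plus strand, with 81141 bases between the gene models. Their ratio was 0.366, 0.364 and 0.367 in Sham and 0.385, 0.391 and 0.381 in IR injury, the smallest difference of the 8 pairs at 0.08 on the log2 scale. Elovl5, which extends polyunsaturated chains, fell from 129 ± 3.18 to 74.6 ± 3.08 FPKM (-0.79). Elovl6, which extends saturated and monounsaturated chains, was at 12.4, 14.9 and 13.4 FPKM in Sham and 16.0, 13.9 and 13.5 in IR injury. The groups overlapped (adjusted p = 0.365), while under median-of-ratios scaling it passed as higher (0.37, adjusted p = 0.0101).

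In triglyceride synthesis 5 of the 6 genes tested fell, Gpam and Agpat2 by the most, beside 53.8% of all genes lower. Under median-of-ratios scaling 5 were lower and 1 higher, beside 38.1% and 38.2% of all genes. Gpam, the mitochondrial glycerol-3-phosphate acyltransferase, went from 28.8, 33.5 and 31.7 to 9.80, 10.5 and 9.75 FPKM (-1.55, SE 0.0640, adjusted p = 4.74e-07). Agpat2, which adds the next acyl chain, went from 42.6, 37.2 and 41.5 to 13.7, 15.9 and 13.7 FPKM (-1.43, SE 0.0762, adjusted p = 1.58e-06). Their means were 3.13 times and 2.80 times higher in Sham than in IR injury. The glycerol-3-phosphate acyltransferase gene Gpat3, by contrast, rose from 3.16 ± 0.244 to 6.02 ± 0.616 FPKM (0.75). Gpat4, of the same step, was at 30.3 ± 1.77 FPKM in Sham and 33.3 ± 2.23 in IR injury. It did not pass as deposited (0.13) but was higher under median-of-ratios scaling (0.43). Of the phosphatidate phosphatases, Lpin2 fell from 43.2 ± 1.56 to 21.3 ± 2.29 FPKM (-0.99) and Lpin1 from 44.1 ± 2.54 to 31.7 ± 1.41 (-0.46). The 2 lipins overlapped in Sham, with Lpin1 to Lpin2 ratios of 0.981, 1.02 and 1.07, and were apart in IR injury at 1.53, 1.35 and 1.61.

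The acyltransferases of the last step moved in opposite directions. Dgat2 fell from 169.7, 161 and 174 to 91.5, 92.8 and 91.8 FPKM (-0.86, SE 0.0434, adjusted p = 1.17e-06). Dgat1, a structurally unrelated enzyme for the same reaction, rose from 6.69, 6.51 and 6.16 to 8.72, 7.65 and 7.79 FPKM (0.28, SE 0.0605, adjusted p = 0.00340). Dgat2 remained the more abundant per length, but the Dgat1 to Dgat2 ratio rose from 0.0384 ± 0.00261 to 0.0875 ± 0.00683. Pnpla3, a lipid droplet protein induced by lipogenic feeding, was likewise under the filter and did not pass without it (-0.18, limma adjusted p = 0.17), with 0.0872, 0.252 and 0.386 FPKM in Sham and 0.146, 0.0844 and 0.0359 in IR injury from 3 to 32 rebuilt reads per library.

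A further 61 genes of the same pathways were examined, of which 59 were tested. Of these 13 rose and 35 fell, 81.4% in all against the 78.1% of all genes (24.3% higher and 53.8% lower). After median-of-ratios scaling 22 rose and 30 fell, where 38.2% of all genes were higher and 38.1% lower. Counts for the single lists below, and those by role above, were not tested against these shares. Among 8 other sterol and isoprenoid enzymes, 3 rose and 5 fell. Acat2, the cytosolic thiolase before Hmgcs1, fell from 14.9 ± 0.587 to 7.02 ± 0.545 FPKM (-0.99) and Dhdds, of dolichol synthesis, was lower (-0.58), but its partner subunit Nus1 rose (0.60).

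Of 7 genes of SREBP processing and turnover, 5 fell and 1 rose. Erlin2 (-1.11), a sterol-binding scaffold of the ligase complexes that degrade sterol-regulated proteins, and the ligase Rnf139 (-0.81) fell, while Ube2g2, a ubiquitin-conjugating enzyme of the same pathway, rose from 8.30 ± 0.885 to 25.6 ± 0.760 FPKM (1.52). Of 12 genes of sterol sensing, storage and export, 3 rose and 7 fell, beside 24.3% higher and 53.8% lower among all genes. Abca1, an exporter of cholesterol to lipoproteins, rose from 11.9, 14.4 and 13.8 to 72.6, 70.8 and 72.5 FPKM (2.35, SE 0.0683, adjusted p = 1.01e-07). Stard4, a sterol transfer protein (-1.01), and Tmem97, a sterol-regulated membrane protein (-0.99), fell.

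Of 7 genes of NADPH and citrate supply, 2 rose and 4 fell as deposited, while median-of-ratios scaling gave 4 higher and 3 lower. The cytosolic isocitrate dehydrogenase Idh1 (-0.95) and the citrate carrier Slc25a1 (-0.76) fell, while Pgd of the pentose phosphate pathway rose from 4.97 ± 0.140 to 9.74 ± 0.638 FPKM (0.84). Among 6 ChREBP partners and carbohydrate-responsive genes, 3 fell and none rose as deposited, but 3 were higher and 3 lower once the typical gene was aligned. Txnip, an arrestin induced by glucose through ChREBP, fell from 59.9, 59.4 and 57.6 to 8.65, 13.4 and 13.2 FPKM (-2.26), and Pklr, liver pyruvate kinase (-1.04), and Tkfc, which handles fructose-derived carbon (-0.64), fell.

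Of 11 other acyl chain and glycerolipid enzymes, 10 were tested, and 2 rose and 5 fell (4 higher and 5 lower with the typical gene aligned). Elovl3, an elongase of saturated chains, rose from 0.812, 0.677 and 1.02 to 9.02, 7.96 and 6.53 FPKM (2.26, SE 0.114, adjusted p = 1.17e-06), and Elovl2, of polyunsaturated chains, fell from 252 ± 11.8 to 122 ± 2.04 FPKM (-1.04). Of 10 genes of insulin and AMPK signalling 9 were tested, and 2 rose and 6 fell (3 higher and 4 lower with the typical gene aligned). Irs2, the insulin receptor substrate that falls when insulin is high, rose from 4.75, 5.40 and 4.40 to 34.2, 33.3 and 34.8 FPKM (2.59, SE 0.0671, adjusted p = 5.93e-08). Prkaa2, a catalytic subunit of AMPK (-0.49), and Pik3r1, a regulatory subunit of PI3-kinase (-0.48), fell.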

How the data were processed

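The authors deposited 1 table of FPKM values from total RNA (SMARTER mRNA-Seq kit, per the labels' protocols), 1 column per library, and the submitters' processing notes name mm10. The sources used here do not give the aligner, counter, annotation or strand handling. Groups and replicate numbers came from the titles. GENCODE M21 exon lengths turned 98.3% of the listed genes (26610 of 27072) into whole reads within 0.05, which gave library totals of 53622229 to 71752584 reads. Libraries of a group differed by more than sampling noise (median chi-square 1.91 to 3.91 against 0.455).

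The test was limma 3.58.1 (R 4.3.3; empirical Bayes with a variance trend; two-sided) on log2(FPKM + 1) for genes whose mean FPKM reached 1, with Benjamini-Hochberg adjustment over 10316 genes and a threshold of 0.05. Fold changes on that scale understate those of low genes, and SE is limma's. The procedure was tested on simulated data for 10269 genes, with 50 changed at each fold. At a coefficient of variation of 5%, it recovered 78% of 1.25-fold and 94% of 2-fold changes, with 14 false calls. At 20% it recovered 0% and 70%, with 8 false calls. Far fewer genes changed there than in these data, so behavior at the present share was not tested. Pair ratios used an exact permutation test. Near copies were sought with blastn (95% identity over 200 bases). Other steps used Python 3.11.15.

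Genes and lists were chosen with earlier results of these data known. All 40 genes could be named, and from each list of related genes the 3 largest changes past the threshold. Mid1ip1 was described beside Thrsp, and Gpat3 and Gpat4, outside that rule, beside Gpam. Alternatives were other pseudocounts (0.1, 0.5), filters (none, mean of 5), scalings (median-of-ratios, quantile, TPM), a robust and an untrended fit, limma voom on rebuilt reads, a block for replicate number, and omission of each library in turn.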

Additional observations from a re-analysis of the deposited data

How the results depend on the processing

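Of the 38 genes tested, 29 kept their direction and their side of the threshold under all of the 17 alternatives in which they were tested, which for Mvk and Acaca leaves out the filter at a mean of 5 FPKM. The others were Mvd, Lss, Msmo1, Hsd17b7, Dhcr7, Srebf2, Acly, Me1 and Elovl6. Under median-of-ratios scaling the sign reversed, without passing, for Mvd (0.05), Msmo1 (0.10), Hsd17b7 (0.06), Srebf2 (0.10), Acly (0.03) and Me1 (0.07), and 6 sterol enzymes rather than 10 were lower. Quantile normalization reversed Mvd (0.02) and Srebf2 (0.02). Lss ranged from -0.01 to 0.10 on leaving out 1 library. Among all genes, 2505 were higher and 5548 lower as deposited, 3939 higher under median-of-ratios scaling, 1359 higher and 2573 lower with a mean of at least 5 FPKM, and 8843 lower with no filter. The filters changed how many genes were tested, and median-of-ratios scaling shifted the median of all genes by 0.24 on the log2 scale. With 1 library left out, 26 to 28 of the 38 genes were lower and 6 higher.

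Same-numbered libraries did not deviate together from their group means (correlations of -0.0389, 0.0117 and -0.104 for replicates 1, 2 and 3). Differently numbered ones gave values of similar size, such as -0.0546 for Sham 2 with IR injury 1 and 0.0993 for Sham 3 with IR injury 1. Deviations from means of 3 libraries cannot show whether the samples were paired, and the labels state no pairing. With the replicate block 29 genes were lower and 6 higher, as without it. The block can alter p-values but not fold changes or ratio differences, because both groups hold the same 3 replicate numbers. The Insig1 to Insig2 difference of -1.11 on the log2 scale was therefore the same by construction. With 3 libraries a group, no ratio could pass 0.05.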

Other observations

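Within the IR injury group, replicate 1 held the highest value for 18 of the 38 genes, against 23.2% of all genes tested, and within the Sham group replicate 3 did so for 21 of the 38, against 29.9%. Among the IR injury libraries the coefficient of variation was 36.5% for Pmvk and 20.1% for Acly, against medians of 5.32% for the 38 genes and 6.63% for all genes tested. IR injury replicate 1 also had the lowest summed FPKM of endothelial markers in its group, at 36.3 against 53.8 and 75.6.

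Processed pseudogenes with near-identical sequence exist for 6 of the 40 genes. For Idi1, Gm35570 matched 22.5% of the transcript at 97.7% identity and was listed at 3.46, 4.97 and 6.41 FPKM in Sham and at 2.15, 2.22 and 1.77 in IR injury, the same direction as Idi1 itself. A second copy, Gm13502, matched 22.6% at 100% identity, and its values overlapped between the groups (0.658, 1.49 and 0.954 against 1.32, 0.403 and 1.08 FPKM). For Fdps, the row of Gm3571 exceeded that of the parent gene in all 6 libraries.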
